A study of Arabidopsis thaliana with 2 samples.

Results

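In whole seeds of reciprocal crosses, 276 SNP windows carried both parental alleles at a maternal share between 50% and 80% in both directions of the cross. A window is a 71-nt stretch of the TAIR8 sequence centred on a nucleotide at which the Arabidopsis accessions Col-0 and Bur-0 differ, and a match is a sequenced read assigned to one accession's version of it. The windows were chosen on their shares, with 20 or more matches required per cross, so the shares below describe them and are not tested. They are 276 of the 34959 windows deep enough to be considered (0.789%), out of 147349 windows with any match.

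The RNA came from F1 seeds at 4 days after pollination. One library was made from seeds of Col-0 mothers pollinated by Bur-0 (Col-0×Bur-0), and one from seeds of Bur-0 mothers pollinated by Col-0 (Bur-0×Col-0). Both parents are natural accessions, and the mothers were emasculated and pollinated by hand. With 1 library per cross there is no spread between plants, and all intervals are 95% Wilson intervals that cover counting error only.

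A seed holds tissues with different parental genomes. The diploid embryo receives 1 maternal and 1 paternal genome, the triploid endosperm receives 2 maternal and 1 paternal, and the seed coat is maternal tissue without any paternal genome. A gene transcribed equally from each genome copy would therefore give maternal shares of 50% (1:1) in the embryo and 66.7% (2:1) in the endosperm. In whole-seed RNA a 2:1 mixture made by endosperm cannot be told apart from one made by embryo with some seed coat, nor can fewer cells of a tissue be told apart from less RNA per cell.

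Matches numbered 6773239 in the Col-0×Bur-0 library, against 8576779 in the Bur-0×Col-0 library, each over 4 lanes, of which lane 1 was run on another instrument than lanes 2 to 4. Pooled over the 276 windows, the maternal share lay between 63.0% and 65.8% in the lanes of Col-0×Bur-0 and between 68.1% and 68.6% in those of Bur-0×Col-0. The variance of single windows between lanes was 1.12 times that of sampling in Col-0×Bur-0, against 0.999 times in Bur-0×Col-0. It was measured as the summed chi-square over its degrees of freedom. Without lane 1 of both crosses, 246 windows met the same limits, and 231 of the 276 were among them. Reads matched to more than 1 window made up 0.408% to 0.420% of reads per lane in Col-0×Bur-0, against 7.12% to 7.22% in Bur-0×Col-0, a difference that touches windows with a further SNP within 35 nt.

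Intermediate shares in both crosses were uncommon among well-covered windows. Of the 34959 windows, 31765 had more than 80% maternal matches in both crosses. A further 745 were at 50% to 80% in Col-0×Bur-0 and above 80% in Bur-0×Col-0, and 528 were above 80% in Col-0×Bur-0 and at 50% to 80% in Bur-0×Col-0. Accession-skewed windows were more frequent than the 276: 1006 had less than 50% maternal matches in Col-0×Bur-0 and more than 80% in Bur-0×Col-0, which favours the Bur-0 allele, and 520 favoured the Col-0 allele in the same way.

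**Figure D1:**
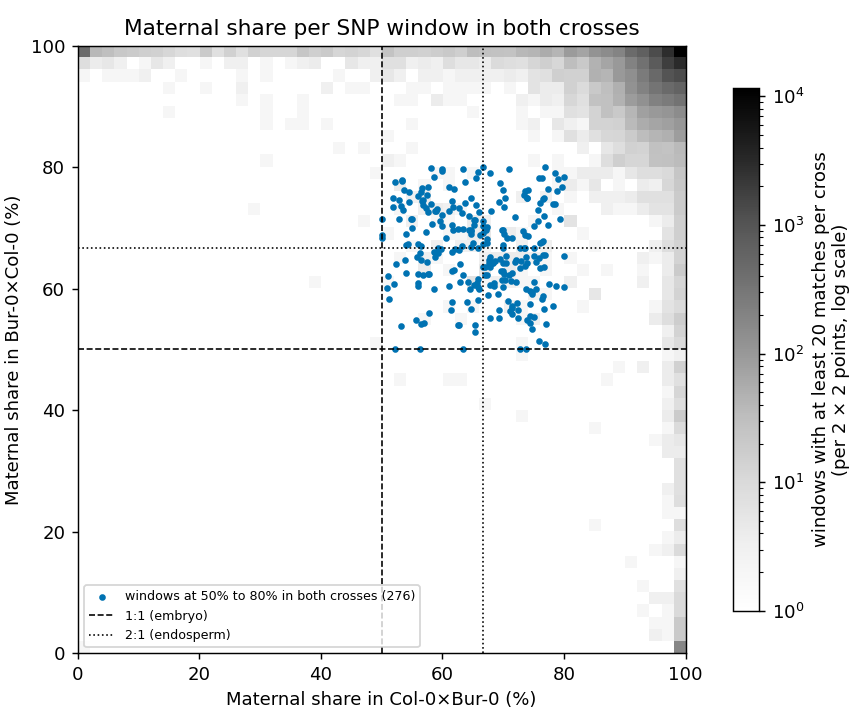
Maternal share (%) of each window in Col-0×Bur-0 (x axis) and Bur-0×Col-0 (y axis). Grey squares count the 34959 well-covered windows per square on a log colour scale, blue points are the 276 windows at 50% to 80% in both crosses, and lines mark 1:1 (dashed) and 2:1 (dotted). Most windows sit in the corner near 100% in both crosses, and the blue points fill the chosen square.

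The 276 windows were spread over the genome, with 60, 48, 46, 41 and 81 on chromosomes 1 to 5, or 0.648%, 0.971%, 0.693%, 0.708% and 0.972% of the well-covered windows there. They had 20 to 5901 matches in Col-0×Bur-0 (median 61), against 20 to 6220 in Bur-0×Col-0 (median 94). Counted by the cross with fewer matches, 132 had 20 to 49 matches and 27 had 500 or more. The 27 were 1.98% of windows that deep, while the 132 were 0.821% of windows at their depth. Windows of this kind were found at every depth. When each start and strand was counted once per lane and allele, 467 windows met the limits, and 233 of the 276 were among them. This count caps the more frequent allele of deep windows and so lowers high maternal shares. The rise to 467 is therefore not a measure of repeated reads alone.

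Together they held 36168 maternal plus 19754 paternal matches in Col-0×Bur-0, a share of 64.7% (64.3% to 65.1%). In Bur-0×Col-0 they held 73712 and 34161, a share of 68.3% (68.1% to 68.6%). They made up 0.826% of all matches and 4.26% of the paternal ones in Col-0×Bur-0, with 1.26% and 8.66% in Bur-0×Col-0. The larger part of the paternal matches follows from the choice and is not a finding. The single-window median was 66.7% in both crosses, with quartiles of 59.3% and 72.8% in Col-0×Bur-0, while they were 61.1% and 72.7% in Bur-0×Col-0. In the other well-covered windows the medians were 98.1% in Col-0×Bur-0, against 98.3% in Bur-0×Col-0.

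Read against the ratios of embryo and endosperm, more of the 276 intervals held 2:1 than 1:1. In Col-0×Bur-0 the interval held 2:1 alone in 143 windows, 1:1 alone in 19, both in 73 and neither in 41. In Bur-0×Col-0 the counts were 142, 16, 48 and 70. Taken over both crosses, 150 windows held 2:1 in both and 1:1 in at most 1, 5 held 1:1 in both and 2:1 in at most 1, 20 held both ratios in both, and 101 held no single ratio in both crosses. The chosen range has 2:1 near its middle and 1:1 at its edge, so these counts depend on the range itself.

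At greater depth few intervals held a ratio in both crosses. Of the 56 windows with 200 or more matches in each cross, 7 held 2:1 in both crosses, 0 held 1:1 in both, and 49 held no single ratio in both. In Col-0×Bur-0, 18 of the 56 intervals lay wholly between the ratios and 16 wholly above 2:1. In Bur-0×Col-0 the same counts were 16 and 21. Only 4 windows lay between the ratios in both crosses and only 3 above 2:1 in both.

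**Figure D2:**
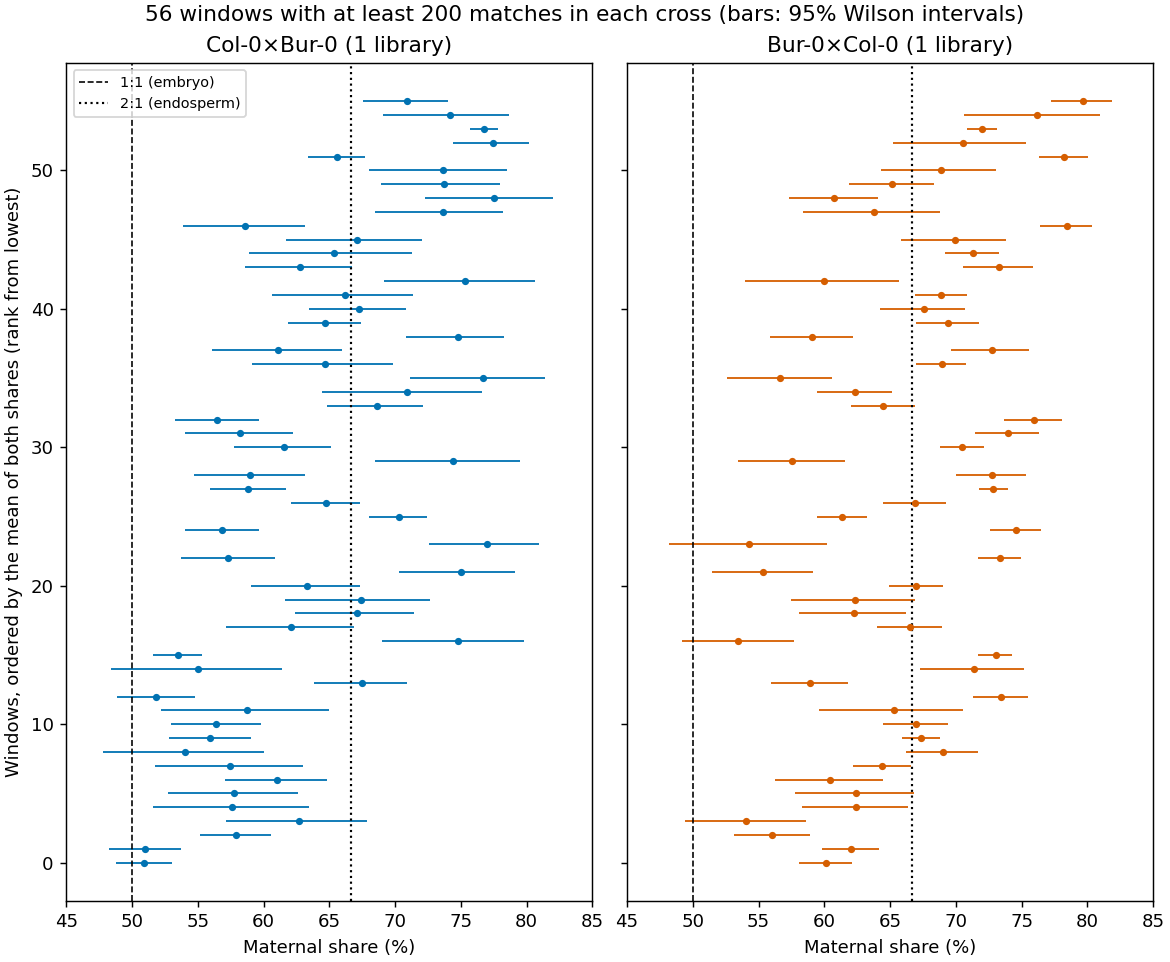
Maternal share (%) with 95% Wilson intervals of the 56 windows with 200 or more matches in each cross, ordered by the mean of both shares, in Col-0×Bur-0 (left) and Bur-0×Col-0 (right). Dashed and dotted lines mark 1:1 and 2:1. Most intervals miss 2:1, and many windows that lie left of it in one cross lie right of it in the other.

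The difference between the shares of a window in the crosses, Col-0×Bur-0 minus Bur-0×Col-0, had a median of 0.253 points, quartiles of -8.75 and 7.78 points, and a range of -25.4 to 26.1 points. The share was higher in Col-0×Bur-0 in 140 windows and higher in Bur-0×Col-0 in 136. It differed by at most 5 points in 92 windows and by over 20 points in 20. Both shares were held to 50% to 80% by the choice, which limits these differences. The mean of both shares, in which a preference for one accession's allele largely cancels, had a median of 66.2% and quartiles of 63.2% and 69.4%.

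A further matched SNP within 35 nt, the reach of a 36-nt read, was present in 51 of the 276 windows (18.5%) and in 29.9% of the other well-covered windows. The median shares of those 51 were 66.1% in Col-0×Bur-0, against 69.9% in Bur-0×Col-0. In the 225 windows without such a neighbour they were 66.7% in Col-0×Bur-0, against 66.0% in Bur-0×Col-0. Matches were not stacked on a few positions in most windows. The median number of distinct start positions was 21.5 in Col-0×Bur-0, against 28 in Bur-0×Col-0. In 16 windows with Col-0 mothers and 12 with Bur-0 mothers, 1 start held over 50% of the matches. The other 34683 well-covered windows were similar, with medians of 23 in Col-0×Bur-0, against 25 in Bur-0×Col-0. Among them 2109 windows with Col-0 mothers and 1147 with Bur-0 mothers had such a start.

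Lanes kept out of the choice gave the counts for a test. Lanes 1 and 2 chose 157 windows by the same limits, and lanes 3 and 4 were then tested with two-sided exact binomial tests, Benjamini-Hochberg adjusted over the 19971 windows with 20 or more matches in the choosing and in the tested lanes of each cross. In the held-out lanes 121 of the 157 were again at 50% to 80% in both crosses, with median shares of 65.1% in Col-0×Bur-0, against 67.1% in Bur-0×Col-0. The pooled held-out share was 65.3% (64.7% to 65.8%) over 27637 matches in Col-0×Bur-0, against 68.6% (68.2% to 68.95%) over 54218 in Bur-0×Col-0. All lanes are taken to come from the same 2 libraries, so the test compares libraries with a fixed ratio and not plants. Lane 2 of Col-0×Bur-0, a choosing lane, differed from lanes 3 and 4 in depth at some windows. Shares of a library recur in its lanes, so the choice still shapes the held-out shares.

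Against 1:1, 106 of the 157 windows differed in Col-0×Bur-0, against 126 in Bur-0×Col-0, all with a higher maternal share and 0 with a lower one, and 85 differed in both crosses. The choice required shares of at least 1:1 in the choosing lanes of the same libraries. The direction of these calls therefore largely follows from the choice and is not a finding, and the choice also shapes their number. Of all windows tested, 98.6% differed from 1:1 in Col-0×Bur-0, against 99.0% in Bur-0×Col-0, 96.1% and 97.7% with a higher maternal share and 2.51% and 1.32% with a lower one, and 97.7% differed in both crosses. Against 2:1, 56 windows differed in Col-0×Bur-0, with 30 lower and 26 higher, and 57 in Bur-0×Col-0, with 23 lower and 34 higher. Of all windows tested, 97.5% differed from 2:1 in Col-0×Bur-0, 3.42% lower and 94.1% higher, and 97.8% in Bur-0×Col-0, 1.98% lower and 95.8% higher. Both crosses differed from 2:1 in 32 of the 157, while 95.8% of all windows tested did so. In 71 of the 157 no difference from 2:1 was called in either cross while 1:1 was rejected in at least 1, and in 5 windows the reverse held. In 76 of the 157 (48.4%) each ratio was rejected in at least 1 cross, and in 5 neither ratio was rejected. These classes were not counted over all windows tested. They also depend on the chosen range, which has 2:1 near its middle and 1:1 at its edge. A window that is not called may still differ from 2:1, since the median held-out depth was 74 matches in Col-0×Bur-0, against 149 in Bur-0×Col-0. Because nearly all windows tested were called, the adjustment over them changes p-values little. It does not limit the rate of false calls among the 157.

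The test for parental bias that the study used on genes, a joint binomial test of both crosses against 2m:1p, called 9 of the 276 windows maternal and 4 paternal. It called 91.9% of the well-covered windows maternal and 0.0687% paternal, and 32.1% and 0.0516% of all matched windows. The windows were chosen on the same shares, so nothing is read from these counts.

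Windows with shares of both alleles lay beside each other. A run is 2 or more of the 276 that follow each other among well-covered windows with starts at most 2000 nt apart. In all, 56 runs held 145 windows (52.5%), and 131 stood alone. There were 34 runs of 2 windows, 16 of 3, 3 of 4, 1 of 5 and 2 of 6. Of the next well-covered neighbours of the 276, 178 of 349 (51.0%) were themselves among the 276, which were 0.789% of all well-covered windows. Of the neighbours of the other windows, 171 of 51447 (0.332%) were among the 276. Those 171 are the mixed pairs of the first count seen from the other side, so the 2 counts are not independent. Leaving out overlapping windows, which can share reads, the count was 134 of 259 (51.7%). Windows of a run may belong to 1 transcript and are not independent.

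The 160 neighbouring windows that did not meet the limits were of several kinds. Of these, 41 were above 80% in both crosses, 18 of them above 95% in both. Another 40 favoured the Bur-0 allele in both crosses, 31 of them with a further SNP within 35 nt, and 24 favoured the Col-0 allele, 6 of them with such a SNP. Another 37 were at 50% to 80% in 1 cross and above 80% in the other, and 18 were at or below 80% in both crosses. Favouring one accession's allele occurred in 2.88% of well-covered windows for Bur-0 and 1.49% for Col-0.

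Windows too shallow for the limits give a measure that did not enter the choice. Within 71 to 1000 nt of one of the 276 lay 285 windows with fewer than 20 matches in a cross and no further SNP within 35 nt. Their pooled maternal share was 72.7% (70.5% to 74.8%) over 1703 matches in Col-0×Bur-0, against 71.8% (70.0% to 73.4%) over 2726 in Bur-0×Col-0. At the same distance from other well-covered windows, and over 5000 nt from any of the 276, the pooled shares were 95.1% (94.9% to 95.2%) in Col-0×Bur-0, against 94.0% (93.8% to 94.1%) in Bur-0×Col-0. The intervals do not overlap, but matches of 1 transcript are not independent. At 2001 to 5000 nt the shares beside the 276 were 89.7% in Col-0×Bur-0, against 83.9% in Bur-0×Col-0, and beside the others 91.4% in Col-0×Bur-0, against 90.0% in Bur-0×Col-0. With closely spaced SNPs included, the 559 shallow windows within 1000 nt gave 62.6% in Col-0×Bur-0, against 83.0% in Bur-0×Col-0. Pooled within 1000 nt, the crosses were thus alike only where SNPs stood apart, and at 2001 to 5000 nt they differed even there. The restriction to windows with SNPs apart was chosen after the data were seen.

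**Figure D3:**
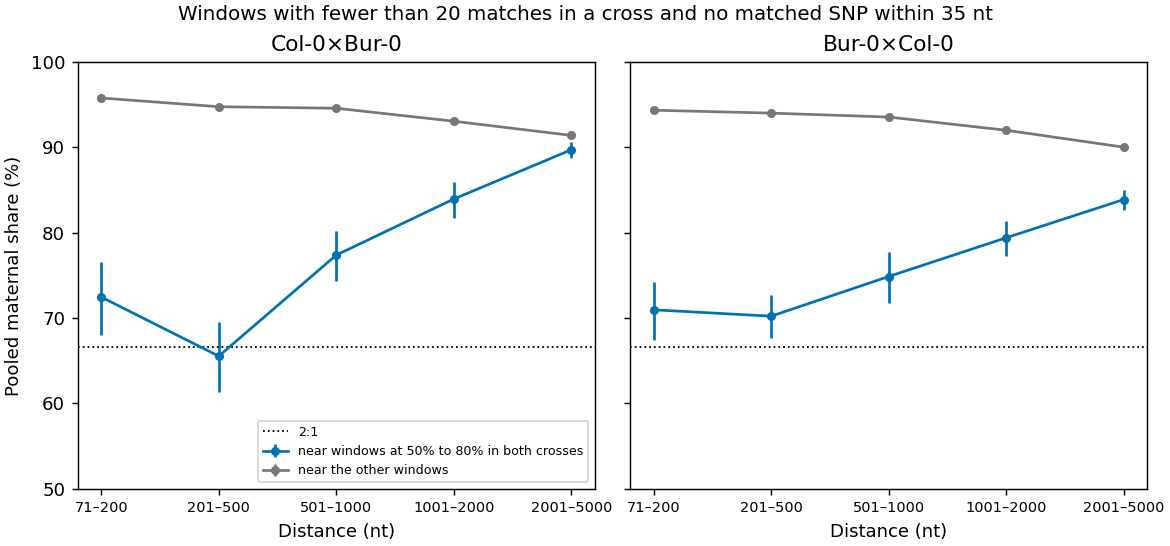
Pooled maternal share (%) of windows with fewer than 20 matches in a cross and no further matched SNP within 35 nt, by distance (nt) to the nearest of the 276 windows (blue) or of the other well-covered windows (grey), in Col-0×Bur-0 (left) and Bur-0×Col-0 (right). Bars are 95% Wilson intervals and the dotted line is 2:1. The blue shares are lowest within 500 nt and rise with distance, while the grey shares stay above 89%.

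The stretch richest in such windows lay at chr5:7011690-7013948 (TAIR8), with 10 of its 13 well-covered windows among the 276. Gene regions were placed where the summed allele counts of neighbouring windows equal those in the study's supplementary gene tables. The stretch lies between the placed loci AT5G20700 and CPN20 (AT5G20720), a chloroplast co-chaperonin, and the only gene between them in the TAIR10.1 gene order is BGAL7 (AT5G20710), annotated as a beta-galactosidase, a family that splits galactose from cell wall polymers. BGAL7 is named here after its values were seen, from gene order and not from TAIR8 gene models. Its 10 windows held 286 maternal plus 143 paternal matches in Col-0×Bur-0 (66.7%), against 297 and 184 in Bur-0×Col-0 (61.7%).

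The genes on either side had higher maternal shares than the 10 windows, near 100% in AT5G20700 and lower in CPN20. AT5G20700 had 10448 maternal plus 8 paternal matches in Col-0×Bur-0 (99.9%), against 18896 and 10 in Bur-0×Col-0 (99.9%). CPN20 had 1095 and 82 (93.0%) in Col-0×Bur-0, against 1279 and 140 (90.1%) in Bur-0×Col-0. Within the stretch, the 10 windows ranged from 55.7% to 76.7% in Col-0×Bur-0 and from 54.8% to 75% in Bur-0×Col-0. The first window, chr5:7011690-7011760, had 17 maternal plus 12 paternal matches in Col-0×Bur-0, against 12 and 8 in Bur-0×Col-0. The last, chr5:7013878-7013948, had 39 and 31 in Col-0×Bur-0, against 40 and 33 in Bur-0×Col-0. The end windows thus showed nearly the same shares in both crosses, but others did not. Among the 10, the window starting at 7013142 had 51 and 18 (73.9%) in Col-0×Bur-0, against 28 and 23 (54.9%) in Bur-0×Col-0. The 3 well-covered windows of the stretch outside the limits favoured one accession's allele, Col-0 in 1 and Bur-0 in 2. That starting at 7013347 had 36 and 11 matches in Col-0×Bur-0, against 16 and 27 in Bur-0×Col-0. That starting at 7013418 had 11 and 20 in Col-0×Bur-0, against 30 and 6 in Bur-0×Col-0. That starting at 7013751 had 9 and 21 in Col-0×Bur-0, against 57 and 6 in Bur-0×Col-0. Of the shallower windows, that starting at 7013779 had 0 and 9 in Col-0×Bur-0, against 29 and 0 in Bur-0×Col-0. The windows starting at 7013751 and 7013779 each have another SNP within 9 nt.

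**Figure D4:**
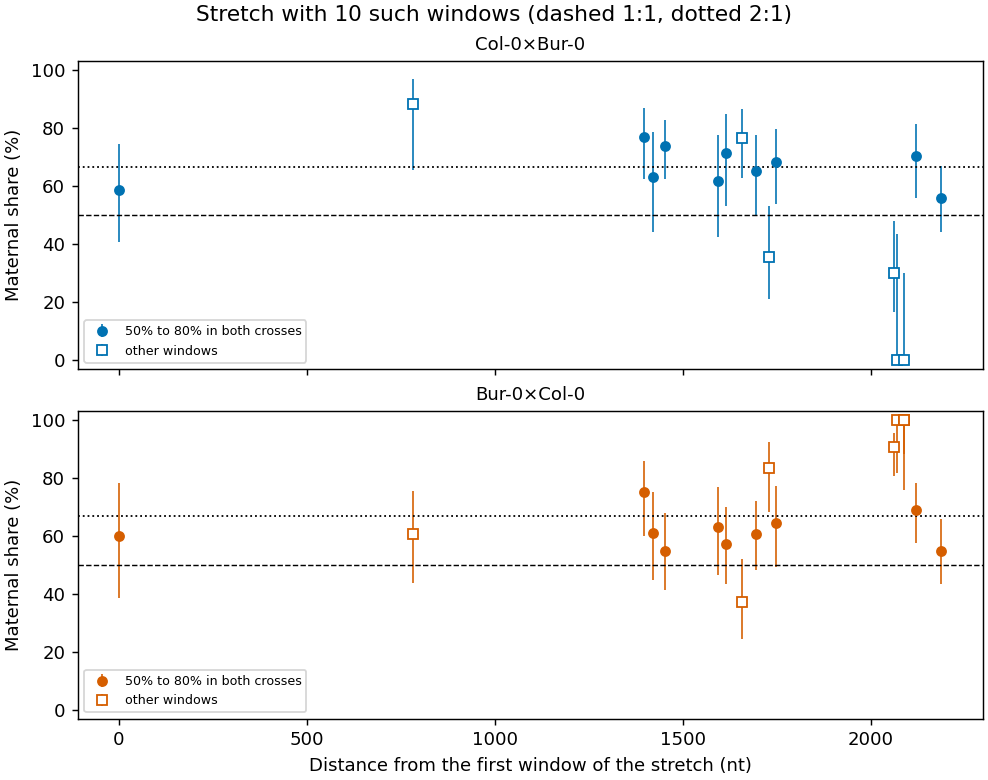
Maternal share (%) of windows in the stretch that contains BGAL7 by gene order, plotted by distance (nt) from its first window, in Col-0×Bur-0 (top) and Bur-0×Col-0 (bottom). Filled circles are the 10 windows at 50% to 80% in both crosses, open squares the others with 5 or more matches, bars 95% Wilson intervals, and lines 1:1 (dashed) and 2:1 (dotted). The circles stay near the lines in both crosses, while 2 of the squares stand at 0% in Col-0×Bur-0 but at 100% in Bur-0×Col-0.

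A run of 6 windows at chr1:3266170-3268560 held 120 maternal plus 78 paternal matches in Col-0×Bur-0 (60.6%, 53.7% to 67.2%), against 171 and 80 in Bur-0×Col-0 (68.1%, 62.1% to 73.6%). A run of 5 at chr3:5847752-5849324 gave 74.0% (70.8% to 76.9%) in Col-0×Bur-0, against 60.7% (58.4% to 62.9%) in Bur-0×Col-0. The run of 4 at chr2:10214198-10215010 gave 69.7% (64.0% to 74.9%) in Col-0×Bur-0, against 71.5% (66.4% to 76.0%) in Bur-0×Col-0. The most deeply covered of the long runs, 4 windows at chr4:8963086-8963570, held 2035 and 1460 matches in Col-0×Bur-0 (58.2%, 56.6% to 59.8%), against 11429 and 4631 in Bur-0×Col-0 (71.2%, 70.5% to 71.9%). All 4 of its windows were lower in Col-0×Bur-0, by 8.97 to 16.0 points, and had 0.228 to 0.315 times the scaled matches of Bur-0×Col-0 (matches per 1000000 of the library). Of the 22 runs of 3 or more windows, 9 kept one sign of the difference between crosses throughout. No gene is given for these runs, since several genes lie between the placed loci on either side.

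Allele counts were read for 2147 loci of the study's gene tables. Gene regions could be placed for 2053 of these, and 11 of the 276 windows fell in 8 of them. The study reports far more maternally biased genes than that, so most of its listed genes were not searched. Genes it did not call biased could not be placed at all. The remaining windows may therefore lie in listed genes as well. The deepest of all, chr4:2719316-2719386, lies in UBQ10 (AT4G05320), a polyubiquitin gene used as a constitutive reference. It had 4530 maternal plus 1371 paternal matches in Col-0×Bur-0 (76.8%, 75.7% to 77.8%), against 4286 and 1666 in Bur-0×Col-0 (72.01%, 70.9% to 73.1%). The other windows of UBQ10 stood higher, at 82.6% in Col-0×Bur-0, against 90.8% in Bur-0×Col-0. Ubiquitin repeats and related genes are close in sequence, and matches were only required to be unique among windows, so the split of reads at UBQ10 is uncertain. Its lanes in Col-0×Bur-0 gave 80.02%, 67.9%, 78.8% and 79.0%, and without lane 2 the share was 79.2%.

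NUC-L1 (AT1G48920), a nucleolin of ribosome synthesis, had 1 such window, chr1:18104773-18104843, with 831 maternal plus 452 paternal matches in Col-0×Bur-0 (64.8%, 62.1% to 67.3%), against 985 and 487 in Bur-0×Col-0 (66.9%, 64.5% to 69.3%). Its other windows gave 88.5% in Col-0×Bur-0, against 90.5% in Bur-0×Col-0. RABA1c (AT5G45750), a Rab GTPase of membrane traffic, had 229 and 82 (73.6%) in Col-0×Bur-0, against 204 and 116 (63.7%) in Bur-0×Col-0 at chr5:18576701-18576771, with its other windows at 93.0% in Col-0×Bur-0, against 92.2% in Bur-0×Col-0. In AT2G22795, the window chr2:9704893-9704963 gave 74.1% in Col-0×Bur-0, against 76.2% in Bur-0×Col-0, beside 99.6% and 93.0% in the rest of the locus. These 4 loci are from the study's list of maternally biased genes, made on these libraries, and their windows were chosen at 50% to 80%, so a gap between window and pooled rest follows from the choice and is not a finding.

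The other 4 placed loci are from the study's list of paternally biased genes, which was made on these libraries. There the remaining windows carried both alleles as well, which follows from that list and is not a finding. In AT2G24693 nearly all remaining matches lay in the window starting at 10513707, which overlaps one of the 276. AT2G24693 held 3 of the 276, all on chr2:10513410-10513910. These 3 were also the windows nearest to 1:1 among the 56 deep ones. The window starting at 10513840 had 1084 maternal plus 1045 paternal matches in Col-0×Bur-0 (50.9%, 48.8% to 53.0%), against 1314 and 872 in Bur-0×Col-0 (60.1%, 58.0% to 62.1%). That starting at 10513743 had 647 and 622 (51.0%) in Col-0×Bur-0, against 1171 and 717 (62.0%) in Bur-0×Col-0. That starting at 10513410 had 746 and 543 (57.9%) in Col-0×Bur-0, against 644 and 505 (56.0%) in Bur-0×Col-0. At the window starting at 10513840, 1 start held 88.3% of matches in Col-0×Bur-0, against 86.2% in Bur-0×Col-0.

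AT1G61688 held 2 of the 276, with 219 maternal plus 160 paternal matches (57.8%) and 279 and 137 (67.1%) in Col-0×Bur-0, against 274 and 165 (62.4%) and 338 and 205 (62.2%) in Bur-0×Col-0. Its other windows gave 58.3% in Col-0×Bur-0, against 66.0% in Bur-0×Col-0. ABCG15 (AT3G21090), a transporter of the ABC family, had 12 and 11 matches in Col-0×Bur-0, against 14 and 14 in Bur-0×Col-0 at chr3:7391639-7391709, too few to separate the ratios. AT1G71870 had 22 and 12 in Col-0×Bur-0, against 17 and 13 in Bur-0×Col-0.

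Of the windows nearest to 2:1 by the mean of both shares, chr2:13134930-13135000 had 422 maternal plus 193 paternal matches in Col-0×Bur-0 (68.6%, 64.8% to 72.2%), against 954 and 525 in Bur-0×Col-0 (64.5%, 62.0% to 66.9%). The window chr2:9404904-9404974 gave 70.9% in Col-0×Bur-0, against 62.3% in Bur-0×Col-0, and chr3:5848106-5848176 gave 76.7% in Col-0×Bur-0, against 56.6% in Bur-0×Col-0. The last shows how a mean at 2:1 can hold shares that differ by 20.03 points. Larger still in matches, chr1:2413214-2413284 had 1464 and 1273 (53.5%, 51.6% to 55.3%) in Col-0×Bur-0, against 3365 and 1243 (73.0%, 71.7% to 74.3%) in Bur-0×Col-0.

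The remaining windows among the 10 deepest followed the same picture. At chr5:2824124-2824194 there were 1229 and 645 matches in Col-0×Bur-0 (65.6%), against 1469 and 409 in Bur-0×Col-0 (78.2%). At chr1:21492641-21492711 there were 1151 and 487 in Col-0×Bur-0 (70.3%), against 1558 and 981 in Bur-0×Col-0 (61.4%). At chr2:675298-675368 there were 671 and 509 in Col-0×Bur-0 (56.9%), against 1424 and 485 in Bur-0×Col-0 (74.6%). At chr1:24949491-24949561 there were 733 and 400 in Col-0×Bur-0 (64.7%), against 956 and 421 in Bur-0×Col-0 (69.4%). The intervals of the crosses did not overlap at the windows on chr5, chr2 and chr1:21492641, and they did at chr1:24949491.

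At the lower limit of 50%, 11 of the 276 lay within 1 point inside and 5 windows within 1 point outside. The deepest outside was chr2:10513707-10513777, also in AT2G24693, with 474 and 485 matches in Col-0×Bur-0 (49.4%), against 882 and 464 in Bur-0×Col-0 (65.5%). At the upper limit of 80%, 15 lay inside and 12 outside. The deepest inside was chr2:1729908-1729978, with 70.9% in Col-0×Bur-0, against 79.6% in Bur-0×Col-0, and the deepest outside chr5:3581349-3581419, with 78.5% in Col-0×Bur-0, against 80.6% in Bur-0×Col-0. The depth limit left out 19 windows with 19 matches in the shallower cross and shares in range, and took in 6 with exactly 20.

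Of the genes listed for one seed tissue, 12 of 23 could be placed, and those held none of the 276. Of 10 seed coat genes of flavonoid and proanthocyanidin metabolism, 8 could be placed, with maternal shares of 99.8% to 100% and none of the 276 windows. Of 7 endosperm genes 3 could be placed. ALE1, an endosperm subtilisin needed for the embryo surface, gave 85.5% in Col-0×Bur-0, against 76.7% in Bur-0×Col-0, FWA 100% and 95.5%, and PHE1 39.8% and 3.57%, with none of the 276. Of 6 embryo genes only ATML1, an epidermal homeodomain gene, could be placed, at 94.2% in Col-0×Bur-0, against 99.0% in Bur-0×Col-0. Of the 11 genes not placed, PDF1, an epidermal gene of the embryo list, is 1 of the 3 genes in the TAIR10.1 order between the placed loci around chr2:17833427-17833497. This window, one of the 276, had 607 maternal plus 177 paternal matches in Col-0×Bur-0 (77.4%), against 218 and 91 in Bur-0×Col-0 (70.6%), and which of the 3 genes it belongs to was not determined. The tissue that supplied the matches of the 276 windows was not tested.

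The level of the windows entered their choice directly only through the minimum of 20 matches per cross, which the other well-covered windows also met. The limits on shares act on the level too, since they leave out windows skewed to one accession's allele. Most of the other windows hold mainly Col-0 matches in Col-0×Bur-0 and mainly Bur-0 matches in Bur-0×Col-0. The levels below are therefore described, and a gap between the 276 and the others is not a finding. The ratio of matches, scaled to 1000000 per library, Col-0×Bur-0 over Bur-0×Col-0, had a median of 0.876 in the 276 (quartiles 0.549 and 1.32) and of 1.28 in the other well-covered windows (quartiles 0.905 and 1.73). It was over 2 in 6.52% of the 276 and in 15.8% of the others, and under 0.5 in 22.1% and in 7.41%. Among windows without a further SNP within 35 nt the medians were 0.881 in 225 of the 276 and 1.41 in 24310 others. The lowest ratio, 0.0751, was at chr4:5835229-5835299, with 36 matches in Col-0×Bur-0, against 607 in Bur-0×Col-0. The highest, 4.74, was at chr3:11366276-11366346, with 430 matches in Col-0×Bur-0, against 115 in Bur-0×Col-0. With 1 library per cross these ratios have no replicate check, and embryo, endosperm and seed coat content of the 2 libraries cannot be told apart from a difference of the genes.

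**Figure D5:**
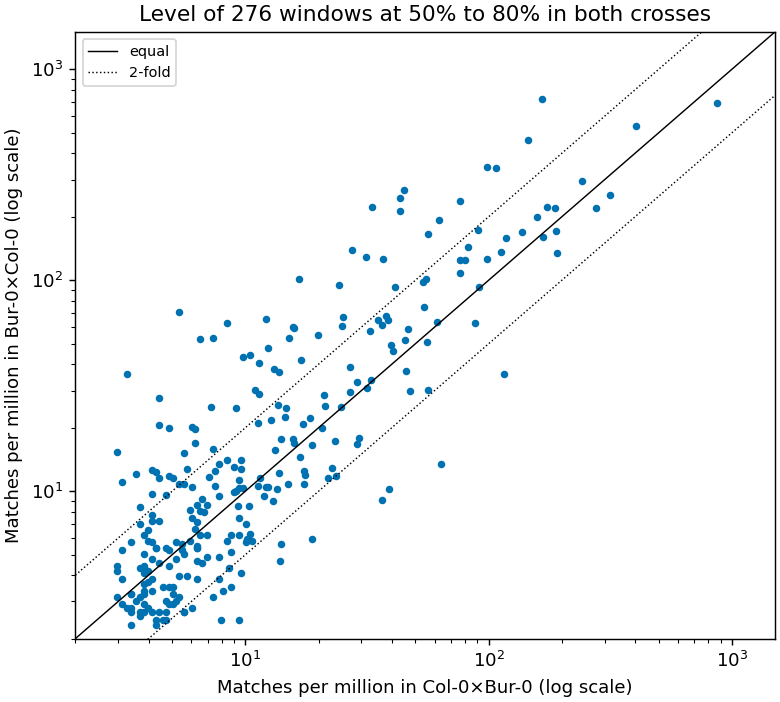
Matches per 1000000 matches of the library in Col-0×Bur-0 (x axis) and Bur-0×Col-0 (y axis) of the 276 windows, on log scales. The solid line marks equal levels and the dotted lines 2-fold differences. More points lie above the upper dotted line (61 windows) than below the lower one (18).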

How the data were processed

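Libraries made with an mRNA kit from RNA of whole seeds were sequenced for 2 crosses, with 1 library and 4 lanes each and reads of 36 nt. The authors deposited lists of matches, 1 line per match, made with vmatch against TAIR8 windows carrying either accession's base, with up to 2 mismatches and unique among windows. The deposited lists hold no counts, gene names or normalization, and any other measure in them (match position, strand) is used as given. Both versions of a window were joined here by chromosome and start, and matches were counted over lanes.

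The members and all lists were chosen with earlier results of these data known. Windows named are the 10 deepest of the 276, the 5 longest runs, the 3 nearest to each ratio among windows with 200 or more matches per cross, those at the limits, and those in placed loci. Others were named after their values were seen. Symbols come from TAIR10.1 by locus, and coordinates were not converted between builds. Genes between loci placed on TAIR8 windows were taken from the TAIR10.1 gene order. Distances count nt between starts.

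Intervals are 95% Wilson intervals. Exact binomial tests were called at an adjusted p of at most 0.05 and tested on simulated data. Alternatives changed the minimum depth, the range of shares, lanes, counting of repeated starts, closely spaced SNPs and the definition of runs. Sequences of the windows, TAIR8 gene models, 94 unplaced loci and the listed genes whose counts were not read were not used here. All steps ran in Python 3.11.15 with SciPy 1.17.1, pandas 2.3.3 and NumPy 2.4.6, and plots were drawn in Matplotlib 3.10.9.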

Additional observations from a re-analysis of the deposited data

Results flagged for a closer look

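The lanes of each cross were compared for the 276 windows pooled and for each of the 10 deepest windows, 22 sets of 4 lanes in all. In 4 sets 1 lane lay far from the other 3. Chance alone gives about 1 such set in 20. Lanes are taken here as repeat readings of 1 library, but lane 2 of Col-0×Bur-0 differed from lanes 3 and 4 in depth at some windows. Its total was 1830948 matches, against 1825651 and 1820892. At chr1:18104773 it had 70 maternal plus 34 paternal matches, against 245 and 139 in lane 3 and 279 and 130 in lane 4. At chr4:8963086 it had 223 and 173, against 122 and 88 in lane 3 and 111 and 101 in lane 4. The cause was not tested. In Col-0×Bur-0, lane 2 of the UBQ10 window chr4:2719316 had 861 maternal plus 408 paternal matches, a share of 67.9% (65.2% to 70.4%), while lanes 1, 3 and 4 gave 80.02%, 78.8% and 79.0%. The other windows of UBQ10 moved the other way in that lane, to 84.2% against 81.7%, 81.7% and 82.7%. Without the UBQ10 window, the pooled share of the remaining windows was 64.0%, 62.6%, 63.1% and 63.5% in lanes 1 to 4.

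The 3 further cases were all in lane 1, the lane of the other instrument, with smaller gaps. These were 62.1% at chr5:2824124 in Col-0×Bur-0, where the other lanes gave 66.3% to 66.7%, 56.4% at chr2:10513840 in Bur-0×Col-0, where they gave 60.6% to 61.4%, and 63.5% at chr1:21492641 in Bur-0×Col-0, where they gave 60.7% to 60.9%. Their cause was not tested.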

How the results depend on the processing

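No paired analysis was possible because each cross has 1 library. Below, a window holds 1:1 or 2:1 where the intervals of both crosses held it and at most 1 held the other ratio, both where they held both ratios, and neither where no ratio was held in both crosses. Leaving out 1 lane of 1 cross gave 236 to 262 windows, 114 to 137 of them in runs, median shares of 65.9% to 66.7% in Col-0×Bur-0, against 66.1% to 66.7% in Bur-0×Col-0, and 2 to 6 windows holding 1:1. Of the 276 windows, 222 to 254 remained. With lanes 2 to 4 of both crosses, added after the data were seen, 2 windows held 1:1. Windows without a further SNP within 35 nt left 225, with 112 in runs, and other run definitions put 121 to 147 windows in runs.

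The number of windows depends on depth and range by construction. A minimum of 10 matches gave 470 windows, 224 in runs, with 230 holding 2:1 and 128 both. A minimum of 50 gave 144, 71 in runs, with 2 holding 1:1, 57 holding 2:1 and 1 both. Lanes 1 and 2 alone gave 169 windows, 69 in runs, with 87 holding 2:1, 10 both and 66 neither, and lanes 3 and 4 alone gave 175, 79 in runs, with 0 holding 1:1, 99 holding 2:1, 11 both and 65 neither. Shares of 45% to 85% put 219 windows in runs, with medians of 68.4% in Col-0×Bur-0, against 68.3% in Bur-0×Col-0, 14 holding 1:1 and 208 neither. Shares of 55% to 75% gave 171, 59 in runs, with 0 holding 1:1 and 47 neither. Shares between 1:1 and 2:1 gave 58, 6 in runs, with medians of 59.5% in Col-0×Bur-0, against 61.0% in Bur-0×Col-0, 20 holding 2:1 and 15 neither.

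Counting one start and strand once per lane and allele caps the more frequent allele of deep windows. This counting gave 467 windows, of which 233 were among the 276, with 219 in runs. It gave a median of 68.4% in Col-0×Bur-0, 19 holding 1:1, 59 both and 199 neither. In held-out lanes it chose 287 windows, with 183 differing from 1:1 and 93 from 2:1 in Col-0×Bur-0, against 201 from 1:1 in Bur-0×Col-0. A held-out minimum of 50 chose 83, with 70 differing from 1:1 and 34 from 2:1 in Col-0×Bur-0, 74 from 1:1 in Bur-0×Col-0, and 47.0% from 2:1 there. With choosing and tested lanes exchanged, 26.7% differed from 2:1 in Col-0×Bur-0. Counted once per start, strand, lane and allele, 4 of 88 shares of named windows were outside 50% to 80%. Of the 88, 40 left their interval, which the cap alone can cause. Of 704 with 1 lane left out, 2 did: 79.2% at chr4:2719316 and 77.8% at chr5:7013284, both in Col-0×Bur-0. Depth limits single windows, since 132 of the 276 rest on 20 to 49 matches.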
